A study of Mus musculus with 17 samples.

Results

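Membrane transporters of the Slc, Slco and Abc families were followed in livers of mice lacking Afp, the gene of alpha-fetoprotein, in adults and in embryos. Members were all platform gene symbols that begin with Slc or Slco and a digit, or with Abca, Abcb, Abcc, Abcd or Abcg and a digit, without the Slc25, Slc27 and Slc2a families, Slc4a1 and Slc37a4. The rule found 178 of 9030 named genes, read by 242 probes, and 173 of them also had a value in embryos. It also takes in Slc9a3r1, Slc9a3r2 and Slc4a1ap, which carry an Slc symbol but are not carriers.

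Each array of this spotted cDNA study compared liver RNA of a single mutant animal, labelled with 1 dye, with pooled wild-type liver RNA labelled with the other. The adult group held 6 Afp mutant (AFP1 kO) males of 17 weeks on 11 arrays, set against a pool from 6 wild-type males of that age, with both dye orientations in 5 animals and the mutant in Cy5 alone in animal 5. The fetal group held 6 Afp mutant embryos labelled 7.5 E, an age given as found in the labels, so that the true stage is uncertain. Embryos 1 to 3 were male and 4 to 6 female, each on 1 array with the mutant in Cy5, against a pool of wild-type embryos. The same 4 animals are named for that pool on all 6 arrays, although it is labelled male on 2 arrays and female on 4. The wild type was measured as a pool alone, the labels give no strain and no detail of the allele, and the labels name the same pool members for every animal of an age, so a test measures the spread among mutants and not that of the wild type.

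Carriers of the Slc superfamily move solutes down or against gradients without splitting ATP, whereas ABC transporters are ATP-driven pumps. In the liver, carriers on the blood side take up bile acids, organic anions, amino acids, citrate and metals, and pumps on the canalicular side move bile salts, phospholipids and sterols into bile. In embryos the liver is also a blood-forming organ, and amino acid and nutrient carriers serve growth.

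Values are log2 ratios of mutant over pool, averaged over probes of a gene, so that 0 means no difference. In embryos the 3 Afp probes read between -9.44 and -7.45, and Afp averaged -8.40 ± 0.23 (SD, n = 6, limma adjusted p = 1.25e-08). In adults, whose livers normally have shut the gene off, Afp averaged -0.03 ± 0.19 (n = 6, adjusted p = 0.944). That adult value does not check the adult labels. The embryo values were read 11 rows below each probe's own row, since the rows as deposited gave the same Afp probes values between -0.21 and 0.92. Because Afp served to choose this naming, its embryo value and p are no separate check of it. Adult arrays held 20078 to 20577 values and fetal arrays 20492 to 20697. The number of animals limits the precision, as arrays carry no count of molecules. Of 11 measured hepatocyte markers 10 were below 0 in adults with the columns as deposited, with a median in each animal between -0.79 and 0.28, but 8 were above 0 with the sign turned on the adult arrays that carry the mutant in Cy3, with a median in each animal between -0.22 and 0.31. In embryos 7 of 10 were above 0, with a median in each embryo between 0.02 and 0.49. Of 6 acinar pancreas markers 5 were below 0 in embryos, 2 of which passed the test, and their median in each embryo lay between -1.21 and -0.47. Erythroid markers were below 0 in embryos for 4 of 4, with medians between -0.38 and -0.07, and stellate and fibroblast markers above 0 for 7 of 7, with medians between -0.18 and 0.42. Endothelial markers were below 0 in adults for 7 of 8, with medians between -0.38 and -0.04, but above 0 for 6 of 8 with the Cy3 columns turned. None of these erythroid, stellate or endothelial markers passed. The part of these shifts in any carrier's value was not tested, and in bulk liver, fewer cells of a type and less RNA per cell cannot be told apart.

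The direction of the adult columns with the mutant in Cy3 is not stated in the labels, and the values do not settle it. Opposite-dye arrays of the same animal correlated at -0.30 on average over 5 pairs (Spearman, all probes), those of different animals at -0.24 over 25 pairs, and arrays of equal dye at 0.30 (Cy5) and 0.29 (Cy3). The columns were used as deposited, as ratios of mutant over pool, so a dye effect cancels in 5 of 6 animals. The dye contrast of a gene is its Cy5 mean minus its Cy3 mean, divided by 2, over the 5 animals with both dyes. Were the Cy3 columns not turned by the authors, the contrast would be the mutant's ratio and the plain mean the dye's, and embryos were measured with the mutant in Cy5 alone, so the contrast is given for the members described at length.

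No member passed the test in any of the 4 comparisons at a limma adjusted p under 0.05, with p adjusted over all features. Among all features, 0% passed in adults (17039 tested), 0.151% in embryos (26 of 17242), 0.141% between ages (23 of 16314) and 0.0116% between embryo sexes (2 of 17212). At an unadjusted p under 0.05 the members came to 21 of 178 in adults against 7.71% of all features, 28 of 173 in embryos against 20.8%, 28 of 172 between ages against 20.2%, and 6 of 173 between sexes against 3.18%. The median over members was -0.004 in adults (88 above 0, 90 below) and 0.018 in embryos (96 above, 77 below), beside 0.008 and 0.005 over all features. The 95% interval lay within a log2 size of 0.5 for 103 of 178 members in adults and 141 of 173 in embryos, and within a size of 1 for 162 and 172. For the remaining members a change of that size is inside the interval, and a missed threshold does not show that they were equal.

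**Figure D1:**
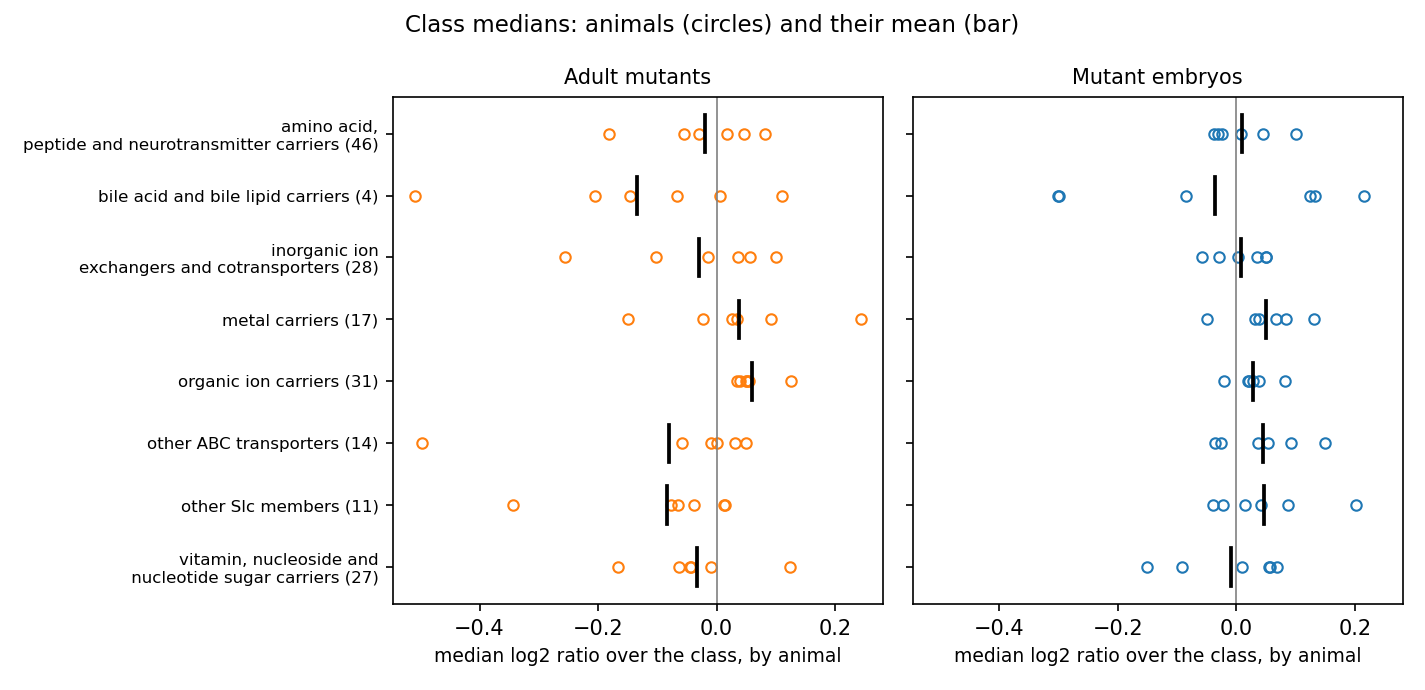
Median log2 ratio (mutant over wild-type pool, x axis) of each carrier class (rows, with the number of members that have an adult value) in each of 6 adult mutants (left) and 6 mutant embryos (right). Circles are animals and bars are means of the 6 medians. The circles lie on both sides of 0 in every class but the adult organic ion carriers, whose 6 medians lie between 0.03 and 0.13.

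Among the 4 measured bile acid and bile lipid carriers, Abcb11, the bile salt export pump, was below 0 in every adult. Its ratios ran between -0.58 and -0.01 in adults with a median of -0.15, and between -0.03 and 0.44 in embryos with a median of 0.21. It averaged -0.24 ± 0.25 in adults (n = 6; limma adjusted p = 0.647) and 0.19 ± 0.18 in embryos (n = 6; adjusted p = 0.231), and its dye contrast was 0.01. Neither mean passed, nor did the difference of adult Cy5 arrays minus embryos, -0.42 (adjusted p = 0.251, 95% interval -0.85 to 0.00). With the Cy3 columns turned the adult mean of Abcb11 was -0.08, with 4 of 6 animals above 0. Abcb4, the canalicular phosphatidylcholine floppase, averaged -0.07 ± 0.20 in adults and -0.12 ± 0.20 in embryos. Slc51a and Slc51b form the basolateral organic solute transporter and stood at -0.03 ± 0.32 and 0.01 ± 0.59 in adults, and at -0.14 ± 0.47 and -0.15 ± 0.41 in embryos. In adults the SD was larger than the size of the mean in all 4. Of the fixed list of bile acid synthesis and control genes, 16 of 24 were measured and none passed; at an unadjusted p under 0.05, 1 stood higher and 4 lower in adults, and 3 higher and 0 lower in embryos, where 3.36% and 4.35% of all features stood so in adults and 10.9% and 9.88% in embryos.

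The organic ion carriers numbered 31, and 16 stood above 0 and 15 below in adults, against 17 above and 14 below in embryos. Slco1a6, an organic anion carrier of the Slco1 family, lay below 0 in 6 of 6 adults, between -0.55 and -0.17 with a median of -0.33. It averaged -0.36 ± 0.14 (0.779-fold; adjusted p = 0.639, 95% interval -0.57 to -0.15), with -0.40 on Cy5 arrays and -0.29 on Cy3 arrays. In embryos it averaged -0.11 ± 0.28, with the 3 males above and the 3 females below 0. All adults were low as deposited, with a narrow spread, and the embryos split by sex. With the Cy3 columns turned the adult mean of Slco1a6 was -0.12, with 2 of 6 animals above 0. Slc16a1, the lactate and pyruvate carrier MCT1, lay above 0 in 6 of 6 adults, between 0.01 and 0.86, and averaged 0.38 ± 0.31 (adjusted p = 0.639). In embryos it averaged 0.21 ± 0.23, and 5 of 6 were above 0. Slc13a5, the sodium-coupled citrate carrier of hepatocytes, was above 0 in all 12 animals. It lay between 0.03 and 0.59 in adults (mean 0.31 ± 0.21) and between 0.04 and 0.35 in embryos (0.15 ± 0.12, adjusted p = 0.275). With its dye contrast subtracted as a fixed value the embryo mean was 0.32 (limma adjusted p = 0.0126, without the contrast's own error). Many of all features passed in that setting, with the count given at the end, so this is no result about Slc13a5. With the Cy3 columns turned its adult mean was -0.04.

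Slc13a3, the high-affinity dicarboxylate carrier, stood on opposite sides of 0 in the 2 ages. It was above 0 in 5 of 6 adults, between -0.24 and 0.83 with a median of 0.46, and below 0 in 5 of 6 embryos, between -1.02 and 0.22 with a median of -0.61. The exceptions were adult animal 5, at -0.24, and embryo 5, at 0.22. Adults averaged 0.39 ± 0.35 and embryos -0.56 ± 0.44, at 1.31-fold and 0.680-fold. On adult Cy5 arrays minus embryos the difference was 0.94 (adjusted p = 0.0749, 95% interval 0.44 to 1.44). Its dye contrast was -0.01, and with that subtracted as a fixed value the embryo mean was -0.54 (limma adjusted p = 0.0333). Many of all features passed with contrasts subtracted, as counted at the end, so that p is no result about Slc13a3. With the Cy3 columns turned its adult mean was -0.05. Without embryo 5 the difference was 1.10 (adjusted p = 0.0413), and without adult animal 1 it was 0.97 (adjusted p = 0.0353). The call thus changed with 1 animal left out, but more of all features passed then too, so this is not particular to Slc13a3. The Cy5 array of animal 1 had a median absolute deviation of 0.30, beside 0.55 to 0.66 on the other adult Cy5 arrays. The part of that spread in the calls was not tested. Slco2a1, the prostaglandin carrier, reached 0.84 on adult Cy5 arrays against -0.11 in embryos, but -0.59 on Cy3 arrays. The groups did not overlap, and its dye contrast was 0.69.

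The 46 amino acid, peptide and neurotransmitter carriers held 6 of the 13 members that lay below 0 in every adult, as 2.9% of all features did. With the Cy3 columns turned, only Slc35b3, of another class, stayed below 0 in every adult among the 13. Slc38a4, the system A neutral amino acid carrier SNAT4 of the liver, lay below 0 in 6 of 6 adults, between -1.08 and -0.06 with a median of -0.53. It averaged -0.55 ± 0.33 (0.684-fold; adjusted p = 0.639, 95% interval -0.86 to -0.23). The mean was -0.56 on Cy5 arrays and -0.43 on Cy3 arrays, and the dye contrast was -0.01. Slc6a19, the neutral amino acid carrier B0AT1, was below 0 in 6 of 6, between -0.87 and -0.06, and averaged -0.50 ± 0.31 (0.708-fold; adjusted p = 0.639), with -0.60 on Cy5 and -0.46 on Cy3 arrays. Both carriers were low in each orientation as deposited. With the Cy3 columns turned the adult mean of Slc38a4 was -0.19, with 3 of 6 animals above 0. That of Slc6a19 was -0.11, with 2 of 6 above 0. Neither of these 2 carriers has a named embryo value. Their probes lie past probe 20000, as does that of Slc6a2. All 9 member probes there averaged below 0 in adults, between -1.44 and -0.06. The part of probe position in these values was not tested. Slc38a3, the glutamine carrier SNAT3, averaged -0.33 ± 0.39 in adults, with 4 of 6 below 0, and 0.06 ± 0.25 in embryos. Slc6a2, the noradrenaline carrier, spread from -4.01 to -0.06 and averaged -1.44 ± 1.54, all 6 below 0. Slc6a4, the serotonin carrier, had values in 5 adults, all below 0, with a mean of -0.36 ± 0.18.

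In embryos, Slc7a5, the large neutral amino acid carrier LAT1, lay below 0 in 6 of 6, between -1.16 and -0.02 with a median of -0.49. It averaged -0.53 ± 0.38 (0.693-fold; adjusted p = 0.108, 95% interval -0.85 to -0.21), against -0.03 ± 0.38 in adults. Its dye contrast was -0.18, and with that subtracted the embryo mean was -0.34. Its partner subunit Slc3a2, the 4F2 heavy chain, stood at 0.16 ± 0.17 in embryos and -0.00 ± 0.15 in adults. Slc43a2, the related carrier LAT4, was below 0 in 6 of 6 embryos with a small spread, -0.23 ± 0.07 (adjusted p = 0.118), and with its dye contrast of -0.24 subtracted it stood at 0.02. Slc7a6, a cationic and neutral amino acid carrier, averaged -0.26 ± 0.34, led by embryo 6 at -0.95, and -0.14 with its contrast of -0.13 subtracted. Slc6a8, the creatine carrier, was above 0 in 6 of 6 embryos, between 0.01 and 0.77, and averaged 0.39 ± 0.27 (adjusted p = 0.115). Its dye contrast was 0.78, and with that subtracted as a fixed value the embryo mean turned to -0.39 (limma adjusted p = 0.0277). Many of all features passed with contrasts subtracted, as counted at the end, so that p is no result about Slc6a8. The amino acid response list, 12 genes in adults and 11 in embryos, had none that passed. Its lowest adult value was Asns, asparagine synthetase, a gene chosen after its values were seen, at -0.95 ± 0.47 over 5 animals (adjusted p = 0.639), against 0.00 ± 0.23 in embryos.

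**Figure D2:**
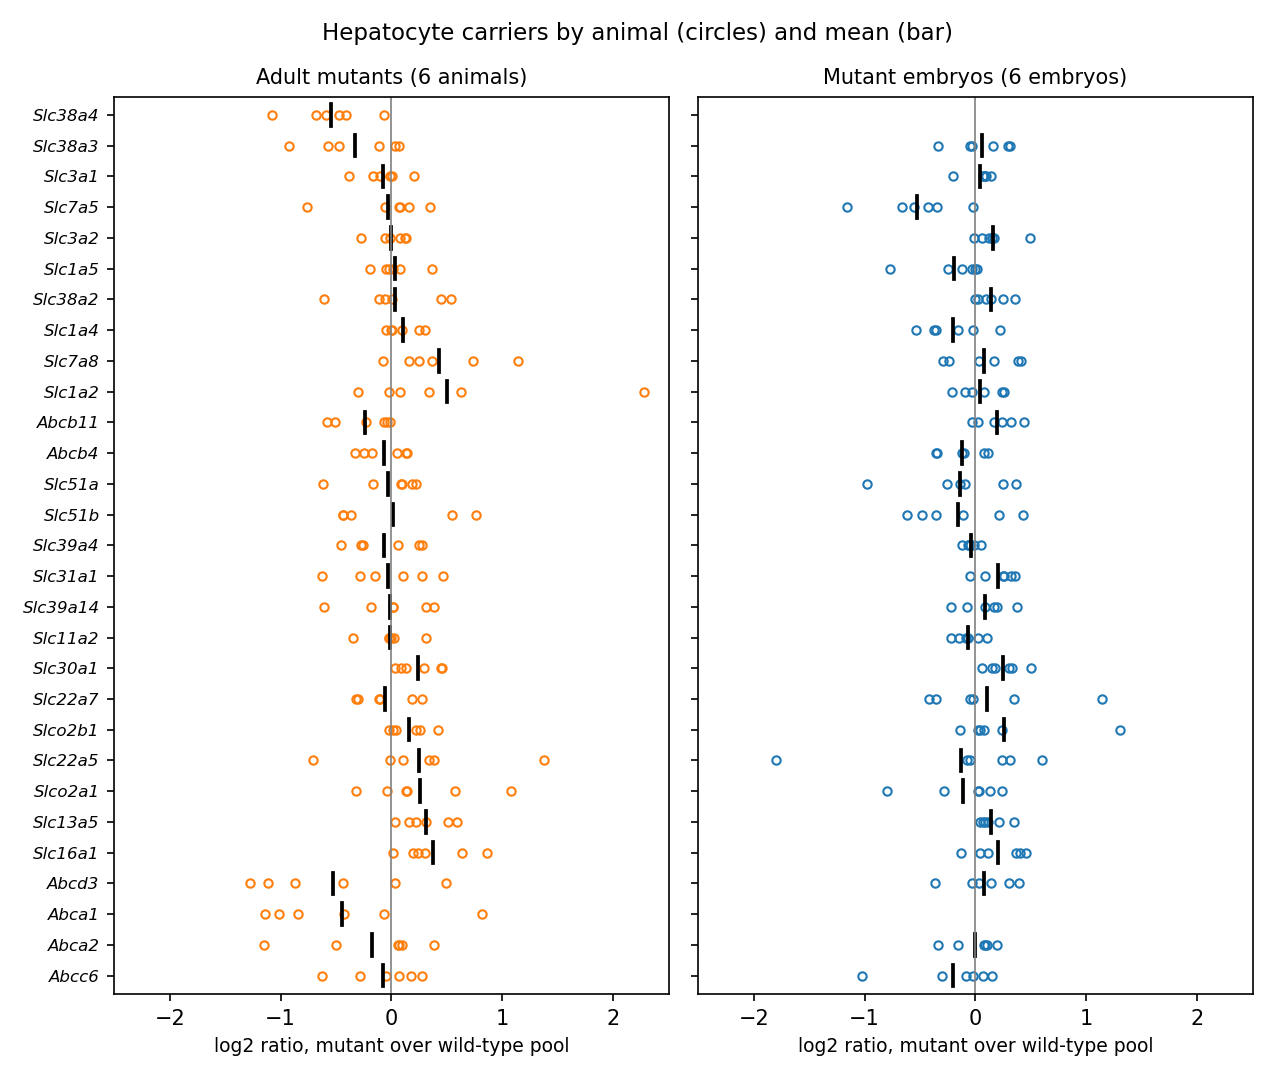
Log2 ratios (mutant over wild-type pool, x axis) of the 29 measured carriers of the hepatocyte list, ordered by class, in 6 adult mutants (left) and 6 mutant embryos (right). Circles are animals and bars are means; Slc38a4 and Abca1 have no embryo value. Most carriers straddle 0. Slc38a4 and Abcb11 lie below 0 in all adults, and Slc7a5 lies below 0 in all embryos. Slc13a5, Slc16a1 and Slc30a1 lie above 0 in all adults, and Slc13a5 and Slc30a1 in all embryos.

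The hepatocyte carrier list, 29 of 49 genes measured, had a median of -0.010 in adults and 0.044 in embryos. Its median in adult animal 5 was -0.32, while the other 5 adults lay between 0.01 and 0.07. Animal 5 had no dye swap, and on the Cy5 arrays of the other animals that median ran from -0.08 to 0.19. Abca1, the cholesterol efflux pump, stood at 0.81, -0.07, -1.01, -1.14, -0.43 and -0.84 in animals 1 to 6. The median of the hepatocyte markers was 0.28, -0.07, -0.75, -0.79, -0.22 and -0.74 in the same animals. With the columns as deposited, the animals low in the markers were low in Abca1 as well, and the part of the markers in its level was not tested. The only Abca1 probe lies past probe 20000. The Abcd3 probe there read 0.70, -0.22, -1.33, -1.14, -0.22 and 0.48 in the same animals. Like Abca1, the Abcd3, Slc11a1 and Slc7a6 probes there were above 0 in animal 1 and then below 0 up to animal 5. Unlike Abca1, they were above 0 in animal 6. Those of Slc38a4, Slc6a19, Slc6a2, Slc1a5 and Slc29a3 there were below 0 in animal 1. The part of probe position in these values was not tested. Abca1 averaged -0.45 ± 0.73 and Abcd3, a peroxisomal fatty acid importer, -0.53 ± 0.69 (adjusted p = 0.670 and 0.644).

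Metal carriers numbered 17, with 10 above 0 in adults and 9 of 16 above in embryos. Slc30a1, the plasma membrane zinc exporter ZnT1, was above 0 in all 12 animals. It lay between 0.03 and 0.46 in adults (median 0.21) and between 0.06 and 0.50 in embryos (median 0.24). It averaged 0.24 ± 0.18 in adults (adjusted p = 0.643) and 0.25 ± 0.16 in embryos (adjusted p = 0.135), with -0.02 on adult Cy3 arrays and a dye contrast of 0.22, which leaves 0.03 in embryos once subtracted. Slc39a3, the zinc importer ZIP3, averaged 0.27 ± 0.22 in embryos and was above 0 in all 6, but its dye contrast was 1.11. With that subtracted it stood at -0.84 (limma adjusted p = 0.00099). That p takes the contrast as fixed and leaves out the contrast's own error. Many of all features passed in that setting, as counted at the end, so it is no result about Slc39a3. Slc31a1, the copper importer CTR1, averaged 0.20 ± 0.16 in embryos with 5 of 6 above 0, and -0.03 ± 0.40 in adults. Slc39a7, a zinc carrier of the secretory pathway, was below 0 in 6 of 6 embryos and averaged -0.42 ± 0.55, with embryo 1 at -1.47 and the other 5 between -0.58 and -0.08. With its contrast of -0.35 subtracted it stood at -0.07.

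In the fixed list of metal partners, 16 of 24 genes were measured in embryos and none passed; 4 stood higher and 0 lower at an unadjusted p under 0.05, beside 10.9% and 9.88% of all features. They include the metallothioneins, zinc-binding proteins that rise with zinc through the factor Mtf1. Mt1 averaged 1.02 ± 0.40 in embryos (adjusted p = 0.0504), between 0.54 and 1.75, and 0.39 ± 0.50 in adults. Mt2 averaged 0.29 ± 0.17 in embryos and 0.01 ± 0.24 in adults. With their contrasts of 0.24 and -0.19 subtracted the embryo means were 0.78 and 0.48. Mtf1 itself stood at -0.06 ± 0.07 in embryos and 0.13 ± 0.14 in adults.

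The bases upstream of Slc30a1, Mt1 and Mt2 are shown because these zinc-handling genes were all above 0 on average in embryos, a choice made by their values. Other zinc carriers went the other way: Slc30a5 averaged -0.30 in embryos, and Slc39a7 was below 0 as well. Of 16 metal carriers 9 were above 0 in embryos and 7 below. A promoter match is a description only. Each run holds the 250 bases before the RefSeq start (GRCm38.p6, plus strand), and capitals mark matches to TGCACNC or TGCGCNC, the core of the metal response element, on either strand. The regions are chr1:191906531-191906780, chr8:94178839-94179088 and chr8:94172368-94172617.
Slc30a1: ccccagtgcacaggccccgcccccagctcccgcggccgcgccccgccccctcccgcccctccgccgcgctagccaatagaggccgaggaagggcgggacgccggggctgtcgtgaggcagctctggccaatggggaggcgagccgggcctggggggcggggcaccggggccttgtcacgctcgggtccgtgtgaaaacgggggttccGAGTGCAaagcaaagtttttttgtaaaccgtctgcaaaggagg
Mt1: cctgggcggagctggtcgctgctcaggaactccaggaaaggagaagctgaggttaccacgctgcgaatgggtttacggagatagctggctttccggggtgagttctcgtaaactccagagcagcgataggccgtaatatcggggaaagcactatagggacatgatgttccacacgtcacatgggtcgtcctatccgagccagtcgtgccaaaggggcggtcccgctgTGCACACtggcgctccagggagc
Mt2: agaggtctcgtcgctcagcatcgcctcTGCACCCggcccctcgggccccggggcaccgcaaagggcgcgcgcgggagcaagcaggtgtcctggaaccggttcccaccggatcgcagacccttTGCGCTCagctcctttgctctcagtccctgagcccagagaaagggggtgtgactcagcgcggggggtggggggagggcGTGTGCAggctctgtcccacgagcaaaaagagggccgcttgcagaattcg
Slc30a1 holds 1 match, which begins 43 bases before the start, Mt1 holds 1 and Mt2 holds 3. These counts cover the 250 bases shown alone. Bases after the start or further upstream were not searched, so a gene can hold more elements. Of all 32851 upstream regions of this length 21.4% hold a match, as do 26.5% of the 189 regions given for 140 members. Among metal carriers 7 of 15 regions of 12 genes hold one, those of Slc39a3, Slc39a11 and Slc30a5 included, and Slc31a1 and Slc39a7 are among those without these letters.

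Across both ages, 3 of 173 members (Slc13a5, Slc30a1 and Slc8a1) were above 0 in every animal and none below in every animal, beside 0.237% and 0.122% of all features. Slc8a1, the sodium-calcium exchanger, averaged 0.37 ± 0.30 in adults, with animal 5 at 0.97 and the others between 0.14 and 0.32, and 0.30 ± 0.16 in embryos (adjusted p = 0.112). It read 0.68 on adult Cy5 and -0.12 on Cy3 arrays, so its dye contrast of 0.37 was as large as its mean, and its embryo mean with that subtracted was -0.08. Of the 3, Slc13a5 alone had a Cy3 mean above 0, at 0.42. With the adult Cy3 columns turned none of the 3 was above 0 in every adult. On that reading Slc39a3 and Slc6a8 were above 0 in every animal of both ages (3% of all features) and Slc7a5 and Slc7a6 below (1.12%). As deposited, no member was on one side of 0 in every adult and on the other in every embryo. Over the 173 members the adult and fetal means correlated at 0.19, and over 8615 named genes at 0.02 (Spearman, across genes, which share probes' dye behaviour and are no replicates).

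**Figure D3:**
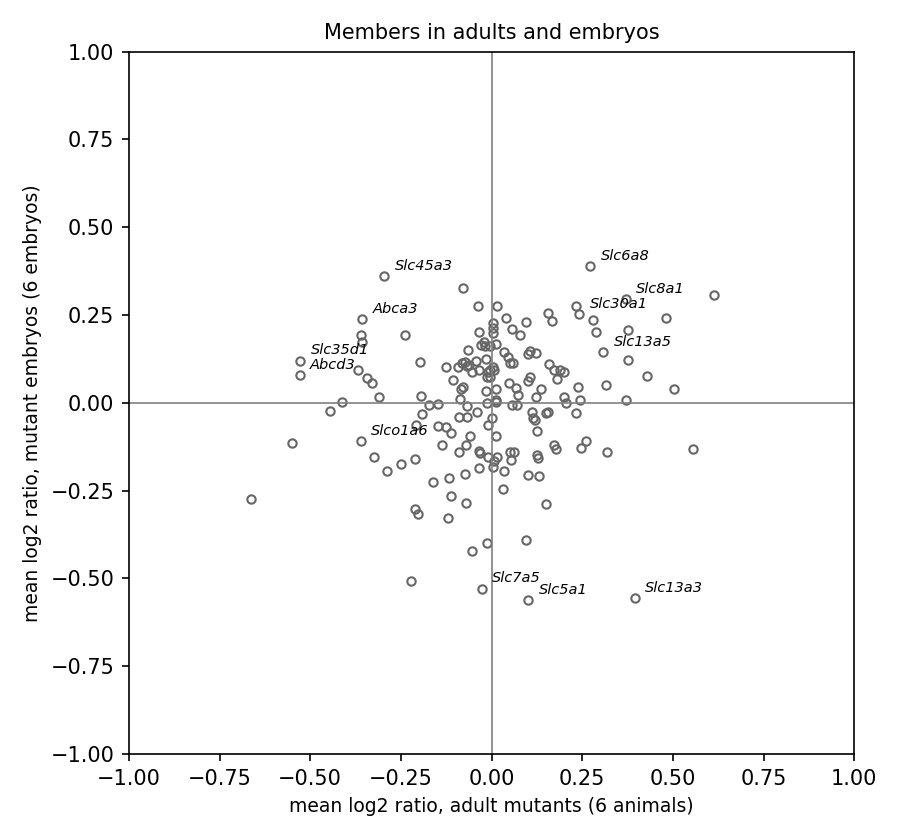
Mean log2 ratio (mutant over wild-type pool) of each member in 6 adult mutants (x axis) and 6 mutant embryos (y axis). Circles are 169 of 173 members; 4 lie outside the axes. Slc13a3 sits at 0.39 and -0.56, apart from the members around 0.

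Inorganic ion carriers numbered 28, with 11 above and 17 below 0 in adults and 13 above and 15 below in embryos. Slc4a2, the chloride-bicarbonate exchanger AE2, was below 0 in 6 of 6 embryos, between -0.55 and -0.17, and averaged -0.32 ± 0.15 (adjusted p = 0.0987). Its dye contrast was -0.38, and with that contrast subtracted its embryo mean was 0.06. Slc12a4, the potassium-chloride cotransporter KCC1, was also below 0 in 6 of 6 embryos and averaged -0.33 ± 0.23 (adjusted p = 0.129), beside a contrast of -0.27, which leaves -0.06 once subtracted. Slc34a3, a sodium-phosphate cotransporter, averaged -0.21 ± 0.12 with 6 of 6 embryos below 0. In adults these 3 averaged -0.20, -0.12 and 0.13, with animals on both sides of 0.

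Among vitamin, nucleoside, sugar and nucleotide sugar carriers, 27 in all, Slc5a1, the sodium-glucose cotransporter SGLT1, had the smallest p of all members in embryos. It was below 0 in 6 of 6, between -1.02 and -0.14 with a median of -0.62. It averaged -0.56 ± 0.31 (0.677-fold; adjusted p = 0.0891, 95% interval -0.84 to -0.29), against 0.10 ± 0.36 in adults, and its dye contrast was -0.14. The 3 females lay below the 3 males. In adults, Slc35d1, a nucleotide sugar carrier of the endoplasmic reticulum, was below 0 in 6 of 6 and averaged -0.53 ± 0.53, with animal 6 at -1.55 and the others between -0.51 and -0.10. Slc35b3, a carrier of the sulfate donor PAPS in the Golgi, averaged -0.37 ± 0.21 with 6 of 6 below 0, and read -0.59 on Cy5 but -0.07 on Cy3 arrays. Slc5a9, a sodium-coupled sugar carrier, averaged 0.32 ± 0.28 in adults with 6 of 6 above 0.

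Among other ABC transporters, Abca3, the lipid pump of lung surfactant, was below 0 in 6 of 6 adults and above 0 in 5 of 6 embryos. Adults lay between -0.70 and -0.19 (mean -0.36 ± 0.18; adjusted p = 0.639) and embryos between -0.16 and 0.39 (0.24 ± 0.21; adjusted p = 0.189). Adult Cy5 arrays minus embryos gave -0.78 (adjusted p = 0.0780, 95% interval -1.21 to -0.35), but its adult Cy3 mean was -0.06. Abcc1, a drug and conjugate exporter, averaged 0.20 ± 0.13 in adults with 6 of 6 above 0. Among other Slc members, Slc66a2 lay in a narrow band in embryos, between 0.22 and 0.40 (0.27 ± 0.07; adjusted p = 0.0892), but with its dye contrast of 0.18 subtracted the mean was 0.10. Slc45a3 averaged 0.36 ± 0.22 in embryos, all 6 above 0 (adjusted p = 0.104), and -0.30 ± 0.28 in adults, with 4 of 6 below 0. Its contrast was 0.27, and the embryo mean with that subtracted was 0.09.

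**Figure D4:**
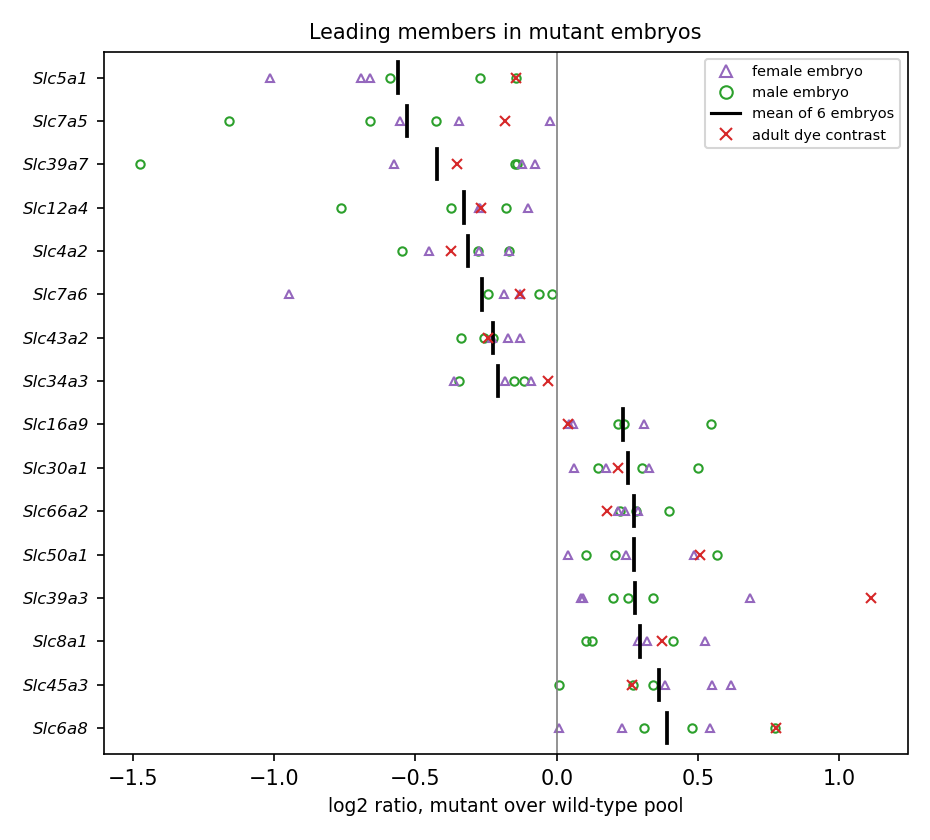
Log2 ratios (mutant over wild-type pool, x axis) of members below or above 0 in every embryo with the largest means or the smallest p. Triangles are 3 female and circles 3 male embryos, bars are means of 6 embryos, and crosses are the adult dye contrast. For Slc4a2, Slc12a4 and Slc43a2 the cross lies near the bar, while for Slc5a1 it lies at -0.14, to the right of the bar at -0.56.

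Counted by sign, 7 of 178 members were above 0 in every adult with a value (3.43% of all features) and 13 below (2.9%). With the Cy3 columns turned 14 were above (12.3%) and 13 below (7.4%), of which 0 and 1, Slc35b3, are among those as deposited. In embryos 12 of 173 were above in all (8.27%) and 9 below (7.5%). Adult Cy5 arrays and embryos did not overlap, with adults higher, for Slco2a1, Slc39a3 and Slc12a7 (3 of 172, beside 1.14% of all features). Adults were lower for Slc6a4 alone (beside 1.15%). Slc39a3 had the smallest p between ages, a difference of 0.89 (adjusted p = 0.0604), but its adult means were 1.16 on Cy5 and -1.15 on Cy3 arrays. Slc12a7, the potassium-chloride cotransporter KCC4, differed by 0.59 (adjusted p = 0.0739) and Slc36a1, a proton-coupled amino acid carrier, by 0.94 (adjusted p = 0.0715). Their adult Cy3 means were -1.23 and -0.83. Without adult animal 1, 13 members passed between ages, these 3 and Slco2a1 among them, and without embryo 5, 2 passed. In both settings more of all features passed as well, with the counts given at the end, so these are no result about members. Over adult animal means of both dyes, Slc39a3 and Slc12a7 differed by -0.04 and -0.19, with the sign turned.

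The reading of the Cy3 columns decides the adult calls. In the 5 animals with both dyes, the Cy5 and Cy3 means lay on opposite sides of 0 for 122 of 178 members (68.5%) and for 69.0% of all features. With the Cy3 columns turned in sign, 11 members passed, all higher, where 10.3% of all features passed. They were Slc39a3, Slc36a1, Slc12a7, Slc26a1, Slc6a8, Slco2a1, Slc29a1, Slc7a4, Slc15a5, Slc6a20a and Slc22a17, at 0.64 to 1.20 on that reading and between -0.09 and 0.27 as deposited. With Cy5 arrays alone 10 members passed, all higher (6.55% of all features), and with Cy3 arrays alone 6 passed, all lower (4.19%). Slc39a3 read 0.85 to 1.62 on the 6 Cy5 arrays and -1.35 to -0.87 on the 5 Cy3 arrays. Slc29a1, the nucleoside carrier ENT1, averaged 0.47 ± 0.27 on Cy5 and -0.95 ± 0.25 on Cy3 arrays, and Slc26a1, a sulfate carrier, 0.86 ± 0.52 and -0.81 ± 0.16. The embryo means of these 11 members lay between -0.11 and 0.39, and 9 were above 0, beside 96 of all 173 members. Embryos carried the mutant in Cy5 alone, and their means correlated with the dye contrast at 0.41 over members (Spearman). The 11 were chosen by values that hold this contrast, so their embryo signs are no separate check. Slc38a4, Slc6a19, Slco1a6 and Slc35d1 were instead on the same side on both kinds of array, and on the turned reading none of them passed.

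**Figure D5:**
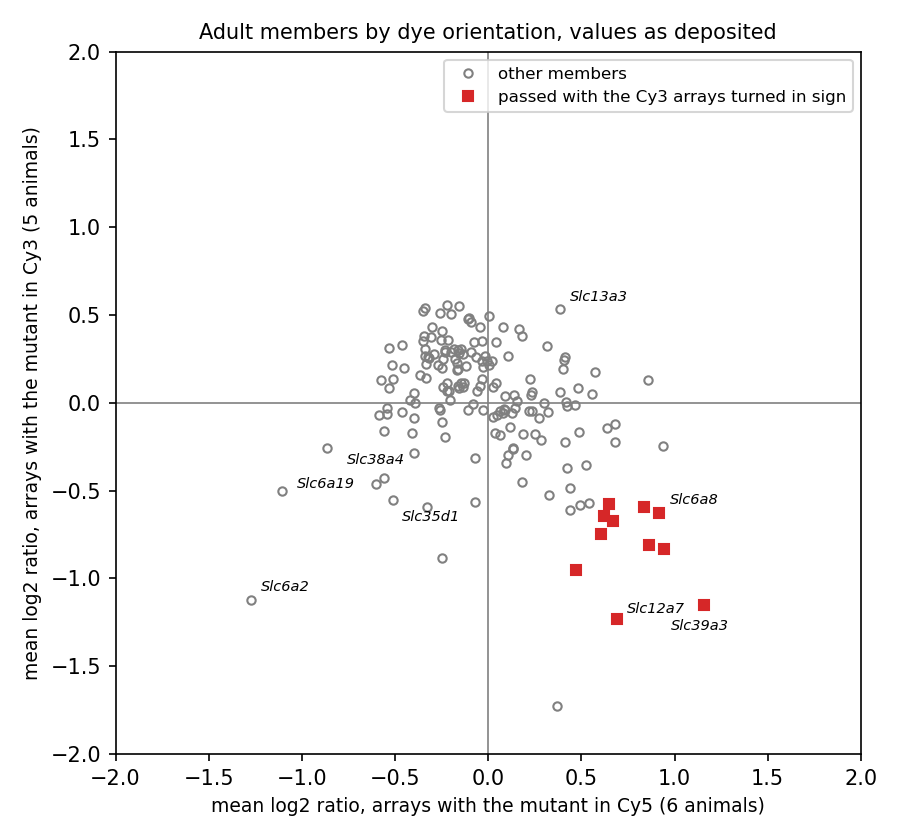
Mean log2 ratio as deposited of each member on adult arrays with the mutant in Cy5 (x axis, 6 animals) and in Cy3 (y axis, 5 animals). Red squares are the 11 members that passed with the Cy3 arrays turned in sign and grey circles are other members; 2 of 178 lie outside the axes. Most members fall at the upper left or lower right, where the orientations differ in sign, and Slc38a4, Slc6a19 and Slc35d1 lie at the lower left.

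Between embryo sexes, females did not overlap males and were higher for 10 of 173 members (4.74% of all features), and lower for 7 (4.85%). The sex of the embryo largely coincides with the label of the pool, so both cannot be told apart here. Slc13a3 averaged 0.62 higher in females, Slc1a4, a neutral amino acid carrier, 0.44 higher, and Slc6a4 and Slc5a1 0.46 lower. The smallest adjusted p of any member was 0.998.

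A few members rest on extreme values. Slc17a7, a vesicular glutamate carrier, read -17.0 in adult animal 3 and between -1.78 and 0.40 in the others. Slc15a2, a peptide carrier, read 16.1 in embryo 6 and between -0.23 and 0.48 in the others, and Slc66a1 read -8.71 in adult animal 6. Slc1a2, a glutamate carrier, averaged 0.50 ± 0.93 in adults, and a probe of it read 16.9 on the Cy5 array of animal 3. Probes of 1 gene differed most for Slc1a2 (2.11 between probe means), Slc49a4 (1.70) and Slc1a1 (1.26) in adults, and for Slc14a1 (0.67), Slc1a1 (0.65) and Slco2b1 (0.61) in embryos. Means of these genes join probes on both sides of 0 or far from each other.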

How the data were processed

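Members, classes and lists were chosen with earlier results of these data known. The deposited values are log2 ratios, 1 per probe and array; the labels do not state the log base, while for scanner, background correction and normalization the steps the authors took were not given in the sources used. Array medians lay between -0.105 and 0.085 in adults and between -0.016 and 0.025 in embryos.

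Values of an adult animal were averaged over its arrays and those of a gene over its probes. Embryo values were named 11 rows up: over all probes the embryo mean and the adult dye contrast then correlated at 0.38 (Spearman), at 0.016 with no offset and at no more than 0.162 at any other of 121 offsets. Rows of embryos past probe 20000 stayed unnamed, which leaves Slc38a4, Slc11a1, Abca1, Slc6a19 and Slc6a2 without an embryo value.

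Features with values in at least 4 of 6 animals (2 per sex) were tested with limma 3.58.1 in R 4.3.3: the mean against 0 in each age, adult Cy5 arrays minus embryos, and female minus male embryos. Passing means a Benjamini-Hochberg adjusted p under 0.05 over all features. Named members were those with the largest means among members of the same sign in every animal, those with the smallest p, the widest spread or the largest gap between probes, and the hepatocyte carrier list; members named outside this rule were given as examples after their values were seen. On simulated data, 65.2% of features changed by 1 log2 unit were found in adults, 88.7% in embryos, 61.6% between ages and 41.7% between sexes. False calls numbered 5, 9, 30 and 8 in that order. The simulation changed many features at once, by 1 or 2 log2 units, with normal noise and no dye effect. Its rates hold for that setting and do not say how often a real change of this size was found. Upstream sequences are RefSeq's for GRCm38.p6, matched by symbol, with 38 members not in the table. Alternatives were the reading and choice of dye orientation, centring, scaling, probe naming, missing and extreme values, single probes, a replicate block and leaving out animals; sign counts and marker lists with the Cy3 columns turned were added after seeing the data.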

Additional observations from a re-analysis of the deposited data

Results flagged for a closer look

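In 14 of 57 groups of 6 animals a single animal stood apart by Dixon's gap test at the 95% level. Chance gives about 1 in 20, but that rate does not hold for members named by their values. The 6 named for the widest spread between animals gave 5 of the 14. In adults, animal 5, the one without a dye swap, stood apart in Abca3 (-0.697, others -0.35 to -0.19), in Slc8a1 (0.972, others 0.14 to 0.32), in the median of the other ABC transporters (-0.4968, others -0.06 to 0.05) and in that of the hepatocyte carrier list (-0.324, others 0.01 to 0.07). Animal 6 stood apart in Slc35d1 (-1.553, others -0.51 to -0.10), in Slc66a1 (-8.712, others -0.12 to 1.96) and in the median of the other Slc members (-0.3432, others -0.08 to 0.01). Animal 3 read -17.0 for Slc17a7, with the others between -1.78 and 0.40, and animal 2 had a median of 0.126 over organic ion carriers, with the others between 0.03 and 0.06.

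In embryos, embryo 6 stood apart in Slc15a2 (16.14, others -0.23 to 0.48), in Slc22a5, the carnitine carrier (-1.796, others -0.07 to 0.60), and in Slc7a6 (-0.946, others -0.24 to -0.02). Embryo 1 read -1.474 for Slc39a7, with the others between -0.58 and -0.08. Embryo 5 read 1.935 for Slc7a1, the cationic amino acid carrier CAT1, with the others between -0.75 and -0.11. The cause of these single values was not tested.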

How the results depend on the processing

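No member passed in the main setting of any comparison. In adults 11 passed with the Cy3 arrays turned, 10 with Cy5 arrays alone and 6 with Cy3 arrays alone. In embryos 47 passed with the adult dye contrast subtracted, where 4930 of 16440 features did. The contrast was subtracted as a fixed value, so p in that setting holds the spread among embryos and not the contrast's own error. Between ages 15 passed with probes named as deposited, a count without its share of all features and so no result about members. Leaving out animals gave 0 to 13 members, with 13 without adult animal 1 and 2 without embryo 5. In these 2 settings 1224 and 78 of all features passed, beside 23 in the main setting. The cause was not tested. Named as deposited, the embryo means turned in sign for Slc5a1 (0.34), Slc4a2 (0.0267), Slc45a3 (-0.18) and Slc7a5 (0.14); with the contrast subtracted, Slc4a2 stood at 0.0608 and Slc5a1 at -0.42 (limma adjusted p = 0.0319). Over both dyes the differences between ages were -0.0407 for Slc39a3 and -0.19 for Slc12a7. Features that passed in embryos, 26 in the main setting, numbered 83 without values beyond 10, 88 as single probes, 43 with the offset on all probes, 17 scaled and 2 without embryos 5 and 6; between ages, 23 became 42 without values beyond 10, 9 over both dyes, 4 without embryos 5 and 6, 78 without embryo 5 and 1224 without adult animal 1. Title numbers shared between ages did not pair samples (correlations -0.0018, -0.0027 and 0.0090), and with them as a replicate block 0 members and 10 features passed. Pools without their own spread and 6 animals an age limit every test.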
